A study of Homo sapiens with 8 samples.

Results

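Transcript levels in cells labelled SKOV3, an ovarian cancer line, were compared between 46 °C, called hyperthermia, and the 37 °C control. The members were the 4 samples whose signal columns carry that line's name, out of 8 samples in the series: 2 at 46 °C and 2 at 37 °C. The other 4 samples were cells labelled A2780, also an ovarian cancer line, 2 at 46 °C and 2 at 37 °C, and shared the normalization, the filter on low levels and the estimate of the spread with them; they also served to check the label and to test whether the responses differed. Biotin-labelled copies of the total RNA were read on Illumina BeadChip microarrays. The labels give neither the length of the exposure nor the time of collection, and do not say whether the 2 samples of a group are separate cultures, so the p-values set each change against a spread between samples that may be technical.

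The identity behind the label was checked first, and the defining markers of the label were mostly missing. SKOV3 is known for amplification of the receptor kinase gene ERBB2 and grows as an epithelial carcinoma line. ERBB2 had normalized log2 intensities of 9.31 and 9.25 at 46 °C and 9.45 and 9.50 at 37 °C in cells labelled SKOV3, against 8.97, 9.10, 9.25 and 9.49 in cells labelled A2780, so the levels overlapped between the lines. Of 15 epithelial and ovarian carcinoma markers measured, 3 lay above background on all 4 arrays of the cells labelled SKOV3 and 10 on none. KRT8, a keratin of simple epithelia, was not above background on any of them (6.42 and 6.11 at 46 °C, 6.15 and 6.13 at 37 °C), and neither were KRT7, CDH1, CLDN3, CLDN4 and PAX8. KRT18, the keratin partner of KRT8, was (7.86 and 7.73 at 46 °C, 7.66 and 7.91 at 37 °C), as was EPCAM (7.88 and 7.60 at 46 °C, 7.89 and 7.60 at 37 °C). The 2 cultures were not alike: KRT18 ran from 5.81 to 6.19 in cells labelled A2780. Of 10 fibroblast markers, 9 lay above background on all arrays of cells labelled A2780 and 3 on all arrays of cells labelled SKOV3. Most were higher in cells labelled A2780, among them DCN, LUM and COL3A1, while POSTN went the other way. The collagen gene COL3A1 lay between 7.61 and 8.06 in cells labelled SKOV3 and between 11.79 and 12.20 in cells labelled A2780. POSTN, which encodes periostin, lay between 12.13 and 12.58 in cells labelled SKOV3 and between 7.20 and 7.61 in cells labelled A2780. The samples are therefore called the cells labelled SKOV3 throughout, and no cell line is inferred.

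Heat unfolds proteins. In mammalian cells, free unfolded protein draws chaperones away from the transcription factor HSF1, which then binds heat-shock elements, repeats of the letters GAA in alternating orientation, and drives chaperone genes. Heat also activates stress kinases, whose target genes, the immediate early genes, are transcribed within minutes and encode short-lived transcription factors and feedback inhibitors. Severe heat slows splicing and 3' end formation, and the short structural RNAs made by RNA polymerase III and by the snRNA pathway normally carry no poly(A) tail. The labelling kit named in the labels starts cDNA synthesis from oligo(dT), so for such RNAs more molecules and more poly(A) tails per molecule cannot be told apart.

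On the 4 arrays the median probe signal ran from 121.8 to 127.2, and between 36.9% and 37.6% of probes lay above background. The 46 °C arrays correlated with each other at 0.991 and the 37 °C arrays at 0.996 over all genes tested. Their median absolute difference per gene was 0.17 at 46 °C and 0.11 at 37 °C on the log2 scale, so the heated pair was the more variable. Array number, 2 per group, limits the precision: the median SE of a change was 0.14. In bulk RNA, fewer cells of a kind and less RNA per cell cannot be told apart.

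The largest changes at 46 °C were rises. Of 14189 genes tested, 213 were higher at 46 °C (1.5% of all tested) and 238 lower (1.68%) at a limma adjusted p under 0.05, 451 in all (3.18%). At least 2-fold changes were 92 rises (0.648%) and 30 falls (0.211%). At an unadjusted p under 0.05 there were 2136 genes, where 5% of those tested would be 709, and the median change of all genes was -0.02 on the log2 scale. The 46 °C and 37 °C arrays did not overlap for 6455 genes, 45.5% of those tested, and for each of the 451 called. The balance of rises and falls moved with the setting. With no between-array normalization 126 genes were higher and 66 lower, and with median scaling 151 and 115. With the replicate number as a block, which kept quantile normalization, 174 were higher and 149 lower. Leaving out either 37 °C array of these cells lowered the count to 179 or 175.

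**Figure D1:**
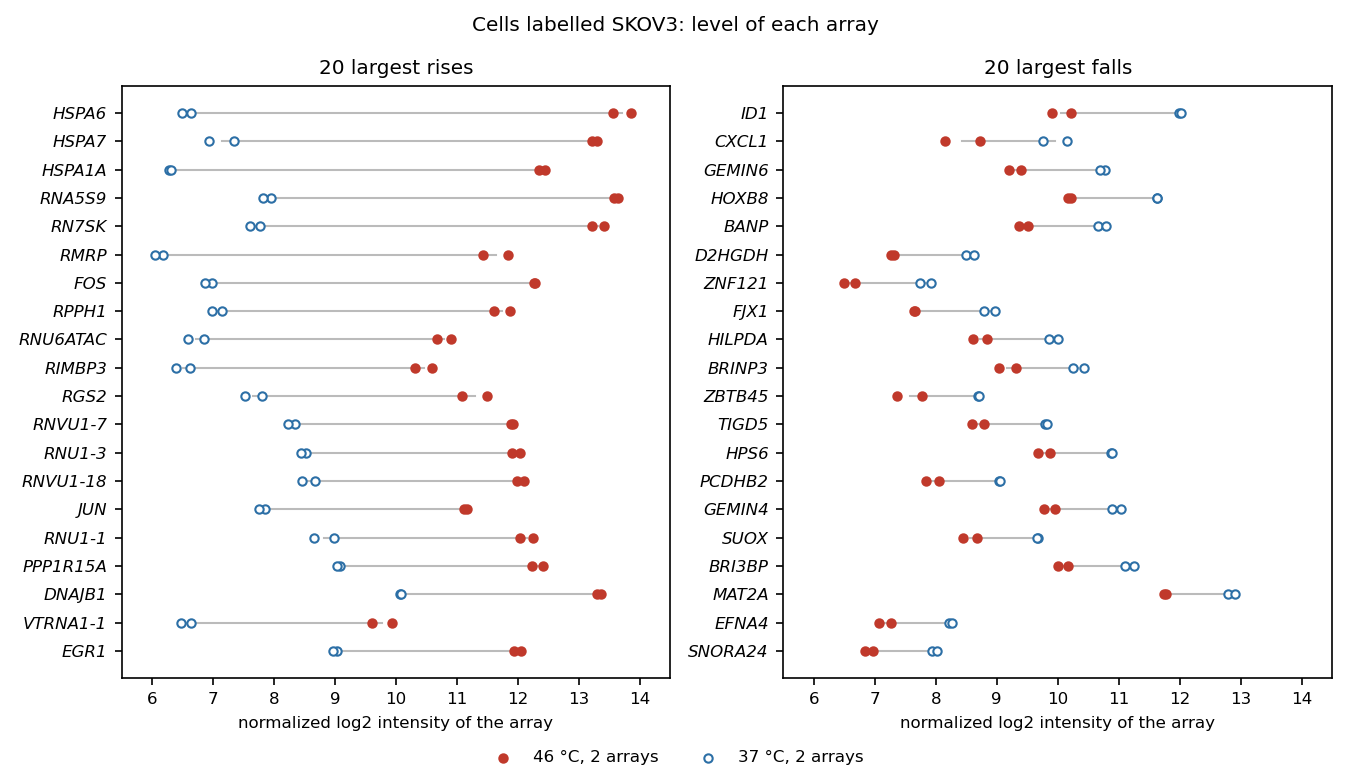
Normalized log2 intensity of each array for the 20 largest rises (left) and the 20 largest falls (right) in cells labelled SKOV3, with 46 °C arrays as filled red points, 37 °C arrays as open blue points and a grey line between the group means. HSPA6 reached 13.85 and 13.56 at 46 °C against 6.64 and 6.50 at 37 °C (7.14 on the log2 scale), and the largest fall, ID1, is a change of -1.94.

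The heat-inducible chaperones gave the largest rises. HSPA6, an HSP70 that is made almost solely under stress, had 13.85 and 13.56 at 46 °C against 6.64 and 6.50 at 37 °C, a change of 7.14 ± 0.13 on the log2 scale (141-fold; ± gives the SE of the limma fit and each group has n = 2, here and throughout; limma adjusted p = 8.21e-13). HSPA1A, the major inducible HSP70, had 12.44 and 12.34 at 46 °C against 6.28 and 6.32 at 37 °C, where it was not above background, and so was at least 60.5-fold higher (6.09 ± 0.12, limma adjusted p = 9.82e-13). HSPA1B, its near-identical neighbour, had 14.11 and 14.03 at 46 °C against 11.50 and 11.33 at 37 °C (2.65 ± 0.13, limma adjusted p = 8.08e-09). Its heated level, like that of HSPA6, lies close to 14.29, the top of the normalized scale, where a change can be compressed. HSPA7, a transcribed pseudogene next of kin to HSPA6, rose by 6.12 ± 0.15. These copies share much sequence, so probe signal may be shared within each pair.

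The promoters of these genes and of their constitutive relatives are set out because the same letters occur in genes that rose and in genes that did not. Each is the 250 bases upstream of a RefSeq transcript start on GRCh38.p14, read 5′ to 3′ on the gene's strand, and capitals mark every pair of facing units, GAANNTTC or TTCNNGAA, which read the same on both strands. Only windows that hold such a pair are printed. BAG3, which rose, and HSPH1 hold none in theirs, and neither do the other transcript windows of DNAJB1 and HSP90AA1.
HSPA6, chr1:161524290-161524539, plus strand: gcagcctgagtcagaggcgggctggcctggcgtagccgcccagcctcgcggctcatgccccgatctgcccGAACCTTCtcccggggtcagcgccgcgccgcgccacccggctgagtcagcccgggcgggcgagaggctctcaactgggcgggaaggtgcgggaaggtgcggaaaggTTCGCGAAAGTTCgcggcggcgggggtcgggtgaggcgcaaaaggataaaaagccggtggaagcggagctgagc
HSPA1A, chr6:31815293-31815542, plus strand: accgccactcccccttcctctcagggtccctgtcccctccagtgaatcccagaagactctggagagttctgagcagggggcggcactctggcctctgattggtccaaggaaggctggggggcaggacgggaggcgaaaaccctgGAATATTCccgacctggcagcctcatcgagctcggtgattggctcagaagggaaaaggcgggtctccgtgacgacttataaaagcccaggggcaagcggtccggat
DNAJB1, chr19:14518398-14518647, minus strand: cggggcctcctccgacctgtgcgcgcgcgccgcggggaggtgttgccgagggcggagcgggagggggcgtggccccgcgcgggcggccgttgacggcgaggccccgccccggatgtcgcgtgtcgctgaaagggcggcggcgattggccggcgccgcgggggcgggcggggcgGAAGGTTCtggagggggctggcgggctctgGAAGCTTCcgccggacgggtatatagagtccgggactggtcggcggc
HSPB1, chr7:76302423-76302672, plus strand: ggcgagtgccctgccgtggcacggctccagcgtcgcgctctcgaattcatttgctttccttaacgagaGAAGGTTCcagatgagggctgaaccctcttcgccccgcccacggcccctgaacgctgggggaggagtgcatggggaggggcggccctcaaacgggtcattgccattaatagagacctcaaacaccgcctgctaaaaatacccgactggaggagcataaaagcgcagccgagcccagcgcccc
HSP90AA1, chr14:102087045-102087294, minus strand: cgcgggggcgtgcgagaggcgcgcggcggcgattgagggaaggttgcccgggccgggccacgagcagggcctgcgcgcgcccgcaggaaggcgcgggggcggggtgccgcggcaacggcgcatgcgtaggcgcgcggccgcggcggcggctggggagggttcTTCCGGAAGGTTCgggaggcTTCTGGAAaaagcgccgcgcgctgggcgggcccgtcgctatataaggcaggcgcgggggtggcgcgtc
HSPA8, chr11:123062137-123062386, minus strand: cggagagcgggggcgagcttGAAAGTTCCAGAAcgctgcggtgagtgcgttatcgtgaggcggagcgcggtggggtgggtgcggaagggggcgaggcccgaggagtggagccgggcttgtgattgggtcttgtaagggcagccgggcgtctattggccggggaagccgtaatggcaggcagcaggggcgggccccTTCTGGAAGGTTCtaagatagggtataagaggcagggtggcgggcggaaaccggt
HSPA6 carries 3 units in a row (GAANNTTCNNGAA or its reverse complement TTCNNGAANNTTC, each of which contains the paired motif), and so do HSP90AA1 and HSPA8.

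HSPA8, the constitutive HSP70, had 13.66 and 13.59 at 46 °C against 13.76 and 13.77 at 37 °C. Its change of -0.14 ± 0.13 did not pass, with a 95% interval of -0.41 to 0.13 (limma adjusted p = 0.664). HSP90AA1, the stress-responsive HSP90, had 13.73 and 13.86 at 46 °C against 13.86 and 13.92 at 37 °C, a change of -0.09 ± 0.12 with an interval of -0.36 to 0.18 (limma adjusted p = 0.799); another of its probes, with a mean level of 13.46, gave 0.40 ± 0.17 (limma adjusted p over all probes = 0.316). The levels of both are close to the top of the scale on every array, where a change can be compressed. HSPH1, an HSP110 that reloads HSP70 with ATP, had 12.98 and 13.39 at 46 °C against 12.62 and 12.51 at 37 °C; the arrays did not overlap, but 0.63 ± 0.17 did not pass (limma adjusted p = 0.0672). It passed under 8 of 23 alternative settings (adjusted p down to 0.0171). The factor gene HSF1 itself was at 6.71 and 6.64 at 46 °C and at 6.63 and 6.56 at 37 °C (0.09 ± 0.14, limma adjusted p = 0.838).

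Among the partners of HSP70, DNAJB1, the HSP40 that delivers clients to it and restrains HSF1, had 13.29 and 13.36 at 46 °C against 10.06 and 10.08 at 37 °C (3.26 ± 0.13, 9.58-fold). BAG3, which couples HSP70 to selective autophagy, had 12.19 and 12.02 at 46 °C against 10.64 and 10.65 at 37 °C (1.45 ± 0.13). HSPB1, the small heat-shock protein HSP27, had 9.64 and 9.47 at 46 °C against 7.02 and 7.23 at 37 °C (2.43 ± 0.14). In each of these 3 genes the groups were far apart. CRYAB, the small heat-shock protein alpha-B crystallin, had 7.97 on both 46 °C arrays and was not above background at 37 °C (6.12 and 5.84), at least 2.83-fold higher. ZFAND2A, a heat-induced partner of the proteasome, had 11.03 and 10.79 at 46 °C against 9.51 and 9.48 at 37 °C (1.42 ± 0.13). DNAJB4, another HSP40, had 8.17 and 9.04 at 46 °C against 7.69 and 7.59 at 37 °C (0.96 ± 0.22, limma adjusted p = 0.0307), a call lost without any 1 of 3 arrays of these cells (adjusted p up to 0.269).

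By family, few members passed, where 1.5% of all genes tested rose and 1.68% fell. Of 14 HSP70 and HSP110 genes tested, 3 rose and none fell (median 0.34, against -0.02 for all genes), and 5 rose without the first 46 °C array. Of 25 cytosolic DNAJ genes 2 rose and none fell (median 0.04), and of 10 small heat-shock and BAG genes 3 rose and none fell (median 0.01). None of 17 HSP90 and HSP90 co-chaperone genes and none of 16 chaperonin and prefoldin genes passed the limma test in either direction (medians 0.01 and 0.07; 3 and 1 had an unadjusted p under 0.05). Of 9 heat-shock factor genes and their regulators 1 passed, ZFAND2A, and the same gene was the 1 of 11 ubiquitin genes and partners that did; each of these counts reached 2 with 1 array left out. Of 35 proteasome genes none rose and 1 fell.

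The paired motif was then counted across all coding genes. Of 52 coding genes that rose at least 2-fold and have a promoter in the table, 8 held it (15.4%), against 2 of 23 that fell at least 2-fold (8.70%) and 1332 of all 10774 (12.4%). Those 8 were HSPA6, HSPA1A, JUN, DNAJB1, HSPA1B, HSPB1, ZFAND2A and IER5. Of the 51 genes with 3 units in the window (0.473% of all), 1 rose, HSPA6 (1.96%), none fell and 50 did not pass. Of the 10723 coding genes with a promoter and no such run, 139 rose and 182 fell. As 1.5% of all genes tested rose, 1 of 51 is near that share and does not set the motif apart. The letters TATAAA or their reverse complement TTTATA were held by 11 of the 52 (21.2%), by 3 of the 23 (13.04%) and by 9.40% of all; among the full set of 219 coding genes called lower, the share was 8.79% of the 182 with a promoter. CCAAT or ATTGG were held by 50% of the 52 and 41.7% of all, and TGACGTCA, the cAMP response element, by 3.85% and 3.38%. A match shows letters in this window, not a bound site, and no test was made of these shares.

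Immediate early genes were the second group of large rises. FOS, a subunit of the AP-1 transcription factor, had 12.27 and 12.28 at 46 °C against 6.98 and 6.86 at 37 °C (5.36 ± 0.12, 41.0-fold, limma adjusted p = 2.79e-12). JUN, its partner, had 11.11 and 11.16 at 46 °C against 7.85 and 7.75 at 37 °C (3.34 ± 0.13). FOSB had 11.43 and 11.22 at 46 °C against 8.58 and 8.53 at 37 °C (2.77 ± 0.17). The groups did not overlap in any of the 3, as in each of the 451 called genes and 45.5% of all tested. EGR1, a zinc finger transcription factor, had 11.94 and 12.04 at 46 °C against 9.04 and 8.97 at 37 °C (2.98 ± 0.13), and NR4A2, an orphan nuclear receptor, had 8.58 and 8.60 against 7.05 and 7.01 at 37 °C (1.56 ± 0.12). IER5, a feedback gene that promotes HSF1 activity, had 10.01 and 9.98 at 46 °C against 8.67 and 8.66 at 37 °C (1.33 ± 0.12). MYC, also an early gene in growth factor responses, did not pass, at 11.26 and 11.27 at 46 °C against 11.56 and 11.43 at 37 °C (-0.23 ± 0.13, limma adjusted p = 0.443).

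The upstream windows of FOS and EGR1 show the core elements of such promoters, with TATAAA in capitals for FOS and the CArG boxes, the core of the serum response element, in capitals for EGR1.
FOS, chr14:75278578-75278827, plus strand: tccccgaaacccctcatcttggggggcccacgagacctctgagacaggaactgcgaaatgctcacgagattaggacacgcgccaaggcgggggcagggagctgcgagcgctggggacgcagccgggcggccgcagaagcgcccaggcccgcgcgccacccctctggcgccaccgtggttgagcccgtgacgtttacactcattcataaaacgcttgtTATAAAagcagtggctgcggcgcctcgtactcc
EGR1, chr5:138465229-138465478, plus strand: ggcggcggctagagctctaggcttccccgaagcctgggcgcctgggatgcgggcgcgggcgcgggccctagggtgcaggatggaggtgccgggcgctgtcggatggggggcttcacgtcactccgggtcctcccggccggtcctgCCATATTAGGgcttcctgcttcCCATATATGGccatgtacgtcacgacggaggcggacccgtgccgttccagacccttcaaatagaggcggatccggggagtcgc
A CArG box occurred in 3.85% of the 52 promoters of genes raised at least 2-fold, EGR1 and ACTA1, against 1.47% of all 10774.

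As a family, 5 of 13 AP-1 genes rose and 1 fell (median 0.04). In the list of EGR, NR4A, KLF and other early factor genes 6 of 20 rose and none fell (median 0.22). Across all genes tested 1.5% rose and 1.68% fell. JUNB, named here after its value was seen, was the AP-1 gene that fell, with 7.51 and 7.28 at 46 °C against 7.92 and 8.13 at 37 °C (-0.63 ± 0.14, limma adjusted p = 0.0293); the call was lost without either 37 °C array or without the second 46 °C array (adjusted p up to 0.332). ATF3, an AP-1 partner and stress factor, rose by 1.13 ± 0.13. MAFF (0.71 ± 0.17) and KLF10 (0.68 ± 0.13) passed, but their calls were lost without 1 array (adjusted p up to 0.258 and 0.162).

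Among signal feedback genes rises outnumbered falls. Of 20 MAP kinase phosphatase and feedback genes 8 rose and 2 fell (median 0.32), where 1.5% of all genes tested rose and 1.68% fell. The calls of both falls, given below, did not hold when single arrays were left out. RGS2, which shuts off Gq-coupled receptors, had 11.09 and 11.50 at 46 °C against 7.80 and 7.52 at 37 °C (3.64 ± 0.20, 12.4-fold), and RASD1, a small GTPase, had 8.63 and 8.40 at 46 °C but was not above background at 37 °C (6.01 and 6.26; at least 4.13-fold higher). GADD45B, an activator of the p38 and JNK pathways, had 10.65 and 10.38 at 46 °C against 8.37 and 8.27 at 37 °C (2.19 ± 0.13). DUSP1, which removes phosphate from p38, JNK and ERK, rose by 1.05 ± 0.12. The genes that fell, named after their values were seen, were the Ras pathway inhibitors SPRY1 (-0.88 ± 0.17) and SPRED2 (-0.57). The SPRY1 call was lost without either 37 °C array or without the first 46 °C array, and the SPRED2 call without any 1 of the 4 arrays of these cells (adjusted p up to 0.130 and 0.279). Of 13 mRNA decay genes 1 rose, ZFP36, whose product destabilises AU-rich mRNAs, by 0.85 ± 0.14; its call was lost without the first 37 °C array (adjusted p = 0.0617).

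**Figure D2:**
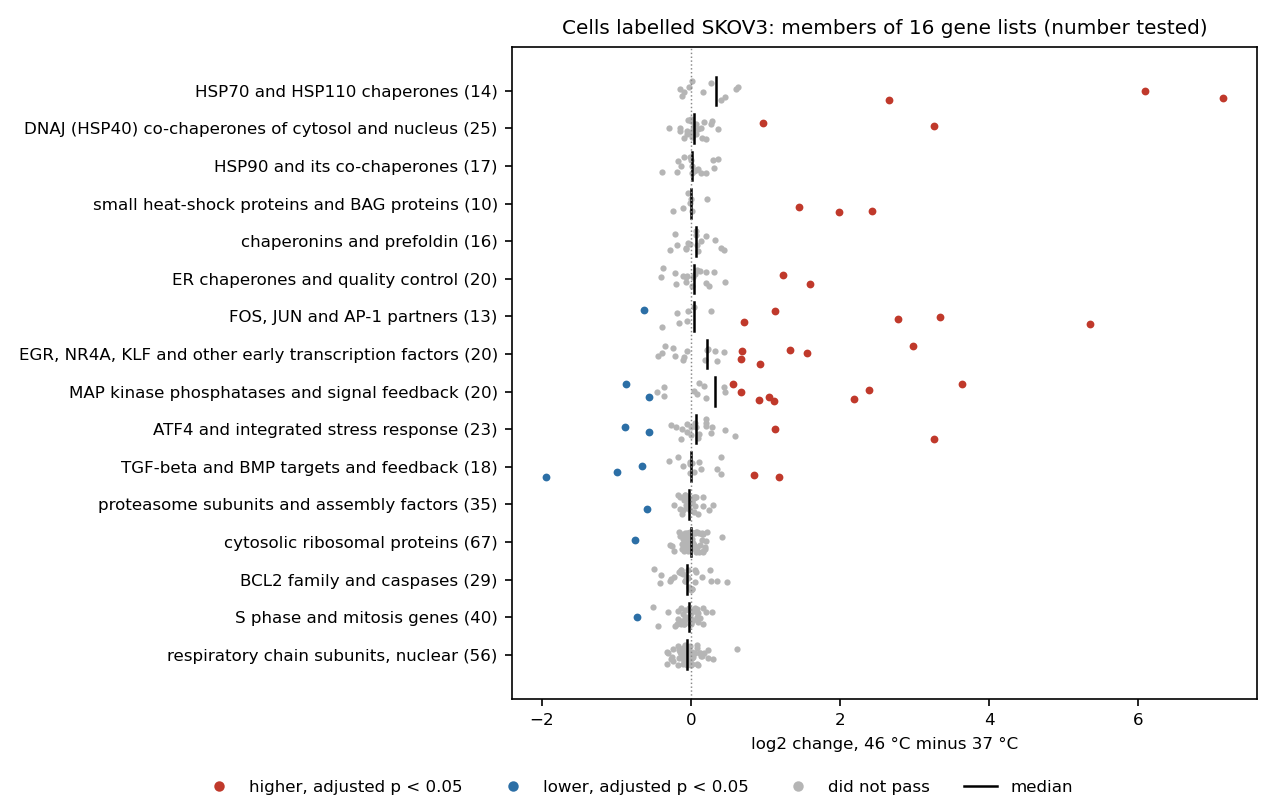
Log2 change (46 °C minus 37 °C) of every tested member of 16 gene lists in cells labelled SKOV3, 1 point per gene, red for higher and blue for lower at a limma adjusted p under 0.05, with the list median as a black bar. In the chaperone and early gene lists a few members lie far to the right (HSPA6 at 7.14, FOS at 5.36) while the medians stay between 0.01 and 0.34, and the 67 cytosolic ribosomal protein genes cluster at 0.

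Short structural RNAs took a far larger share of the large rises than of all genes. Small structural RNAs made up 30 of the 92 genes that rose at least 2-fold (32.6%), 1 of the 30 that fell at least 2-fold (3.33%) and 1.71% of all genes tested. RNA5S9, a 5S ribosomal RNA, had 13.64 and 13.57 at 46 °C against 7.95 and 7.83 at 37 °C (5.71 ± 0.13, 52.5-fold). RN7SK, the 7SK RNA that holds the elongation factor P-TEFb inactive, had 13.41 and 13.22 at 46 °C against 7.60 and 7.78 at 37 °C (5.63 ± 0.13, and 6.09 at its other probe). RMRP, the RNA of RNase MRP, had 11.85 and 11.43 at 46 °C and was not above background at 37 °C (6.17 and 6.04), at least 35.9-fold higher. RPPH1, the RNA of RNase P, had 11.87 and 11.62 at 46 °C against 6.98 and 7.14 at 37 °C (4.69 ± 0.14). In each of the 4, both heated arrays lay far above both control arrays. The heated levels of RNA5S9 and RN7SK are near the top of the scale, where a change can be compressed.

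Of 23 RNA polymerase III and other short structural RNAs tested, 15 rose and none fell (median 1.63, against -0.02 for all genes). Across all genes tested 1.5% rose and 1.68% fell. The spliceosomal RNA RNU6ATAC had 10.68 and 10.91 at 46 °C against 6.59 and 6.86 at 37 °C (4.07 ± 0.14), and the vault RNA VTRNA1-1 had 9.61 and 9.93 against 6.47 and 6.64 at 37 °C (3.22 ± 0.16). The Y RNAs, which bind the Ro60 protein, were split: RNY4 rose by 2.28 ± 0.22, RNY1 by 2.11 ± 0.20 and RNY5 by 1.63 ± 0.18, while RNY3 was at 8.81 and 8.78 at 46 °C and 9.10 on both 37 °C arrays (-0.30 ± 0.13, limma adjusted p = 0.304). RNU6-1, the U6 RNA, rose by 2.01 ± 0.17. RN7SL1, the RNA of the signal recognition particle, was at 13.74 and 13.71 at 46 °C and already at 13.68 and 13.81 at 37 °C (-0.02 ± 0.14). These levels are near the top of the scale, where a change can be compressed. All 4 U1 small nuclear RNAs tested rose, among them RNVU1-7, at 11.92 and 11.89 at 46 °C against 8.34 and 8.22 at 37 °C (3.62 ± 0.13), and RNU1-1 (3.33 ± 0.15); these copies are nearly identical and their probes may read the same RNA. RNU2-1, the U2 RNA, changed by 0.04 ± 0.12. No 37 °C array reached a 46 °C array in any of the 15 that rose. This held for each of the 451 called genes and, in either direction, for 45.5% of all tested, so it adds nothing to the calls.

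Among protein genes around these RNAs few passed. Of all genes tested 1.5% rose and 1.68% fell, so lists this small would hold few or no calls in any case. None of 11 RNase P and RNase MRP protein genes passed (median -0.14, with 1 at an unadjusted p under 0.05), and none of 36 RNA polymerase II and III genes rose. Of 10 P-TEFb and 7SK partners none rose and 1 fell, the cyclin gene CCNT1 (-0.77 ± 0.15, with -0.36 and -0.01 at its other probes). The CCNT1 call was lost without 1 array (limma adjusted p up to 0.201) and with the mean of its probes (0.15). Of 9 SMN complex genes, whose products load Sm proteins onto snRNAs, none rose and 2 fell: GEMIN6 had 9.19 and 9.39 at 46 °C against 10.78 and 10.70 at 37 °C (-1.45 ± 0.13), and GEMIN4 had 9.96 and 9.78 at 46 °C against 11.03 and 10.90 at 37 °C (-1.10 ± 0.13). The median of the list was -0.05. Of 31 SR protein and hnRNP genes 2 rose, CLK1, a kinase of SR proteins, at 10.38 and 11.05 at 46 °C against 8.88 and 8.77 at 37 °C (1.89 ± 0.20), and HNRNPDL (0.96 ± 0.12, with 0.35 at its other probe); without the first 46 °C array 5 of the list rose.

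Small nucleolar RNAs, most of which are cut from introns, changed less. Of 125 box C/D RNAs, which guide 2'-O-methylation, 19 rose (15.2%) and 4 fell (3.2%), with a median of 0.16. Of 86 box H/ACA RNAs, which guide pseudouridylation, 4 rose (4.65%) and 5 fell (5.81%), with a median of 0.02. The box C/D rises lay furthest above the shares of all genes tested, 1.5% for rises and 1.68% for falls. Leaving out 1 array moved the box C/D rises between 11 and 25, their falls between 0 and 5 and the H/ACA falls between 1 and 6. The U3 RNAs, which have their own promoters, were among the largest: SNORD3D had 11.08 and 10.95 at 46 °C against 8.66 and 8.36 at 37 °C (2.50 ± 0.16), and SNORD3A had 10.12 and 10.06 at 46 °C against 7.84 and 7.86 at 37 °C (2.24 ± 0.13). SNORD13, the U13 RNA, rose by 1.99 ± 0.20. SNORA24 had 6.97 and 6.84 at 46 °C against 7.94 and 8.01 at 37 °C, a fall of the H/ACA class (-1.07 ± 0.15). None of 19 small Cajal body RNAs and none of 137 microRNA gene probes passed the limma test (3 and 7 at an unadjusted p under 0.05); of 15 nuclear long non-coding RNAs and snoRNA hosts, 1 fell, SNHG12 (-1.05 ± 0.21, a call lost without 1 array, adjusted p up to 0.208). Of 42 histone genes, whose mRNAs normally end without poly(A), 1 rose and 2 fell (median 0.09).

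**Figure D3:**
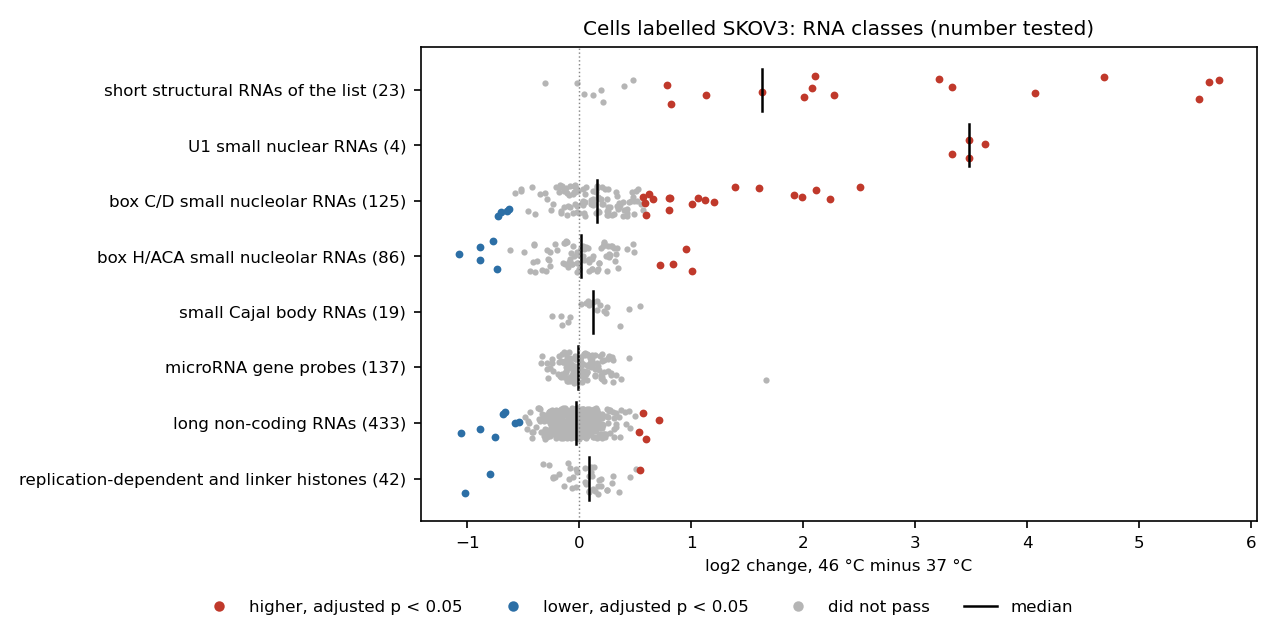
Log2 change (46 °C minus 37 °C) of every tested RNA in 8 classes in cells labelled SKOV3, 1 point per RNA, red for higher and blue for lower at a limma adjusted p under 0.05, with the class median as a black bar. The medians are 1.63 for the 23 short structural RNAs and 3.48 for the 4 U1 RNAs, and lie between -0.02 and 0.16 for the other classes.

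Single genes moved within the stress pathways of translation and the endoplasmic reticulum. Across all genes tested 1.5% rose and 1.68% fell. PPP1R15A, which directs a phosphatase to eIF2α and so restores translation, had 12.42 and 12.23 at 46 °C against 9.09 and 9.03 at 37 °C (3.26 ± 0.13, 9.60-fold). Of 23 ATF4 and integrated stress response genes, 2 rose, PPP1R15A and ATF3, and 2 fell, ATF5 and PPP1R15B (median 0.07). PPP1R15B, which directs the same phosphatase without stress, changed by -0.56 (limma adjusted p = 0.0499), a call lost under 16 of 23 alternative settings. ATF5 was at 8.94 and 8.77 at 46 °C against 9.71 and 9.78 at 37 °C (-0.89 ± 0.15; the call was lost without the second 37 °C array, adjusted p = 0.059). HSPA5, the BiP chaperone of the endoplasmic reticulum, had 9.41 and 8.99 at 46 °C against 7.64 and 7.57 at 37 °C (1.60 ± 0.15), and DNAJB9, its co-chaperone, had 8.51 and 9.14 at 46 °C against 7.67 and 7.51 at 37 °C (1.23 ± 0.18). They were the 2 of 20 ER chaperone and quality control genes that rose, and none fell (median 0.05). HSP90B1, the ER form of HSP90, changed by -0.22 ± 0.14 and XBP1, the ER stress transcription factor, by 0.12 ± 0.12, and neither passed.

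CDKN1A, the cyclin-dependent kinase inhibitor p21, had 8.08 and 7.99 at 46 °C against 6.68 and 6.64 at 37 °C (1.37 ± 0.14), the 1 of 21 p53 response genes that passed; its other probe gave 0.31. ADM, a vasodilator peptide, had 11.47 and 11.18 at 46 °C against 9.995 and 9.944 at 37 °C (1.35 ± 0.15). HILPDA, a lipid droplet protein that is also counted among hypoxia genes, went the other way, with 8.84 and 8.61 at 46 °C against 9.86 and 10.01 at 37 °C (-1.21 ± 0.18), and these were the 2 of 30 hypoxia and glycolysis genes that passed. CCN1, a matricellular target of YAP, had 9.75 and 9.95 at 46 °C against 8.45 and 8.11 at 37 °C (1.56 ± 0.16). Of 15 YAP and TEAD targets 1 rose and 2 fell, FJX1, a Golgi kinase gene, by 1.23 ± 0.13 and ANKRD1 by 1.03 ± 0.17. Across all genes tested 1.5% rose and 1.68% fell, so 1 or 2 calls do not set the p53, hypoxia and YAP lists apart. The ANKRD1 call was lost without the second 37 °C array (adjusted p = 0.0691).

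The falls were smaller, and the largest was that of ID1. This gene, a target of BMP signalling whose product binds helix-loop-helix factors and keeps them off DNA, had 10.22 and 9.90 at 46 °C against 11.99 and 12.02 at 37 °C (-1.94 ± 0.16, limma adjusted p = 4.69e-06; -1.28 at its other probe). ID3 had 12.90 and 12.69 at 46 °C against 13.77 and 13.80 at 37 °C (-0.99 ± 0.15). BAMBI, a decoy receptor that dampens BMP and TGF-beta signalling, had 7.56 and 7.49 at 46 °C and was not above background at 37 °C (6.27 and 6.40), at least 2.07-fold higher. Of 18 TGF-beta and BMP target and feedback genes 2 rose and 3 fell (median 0.00); the calls of SMAD7 (0.85 ± 0.17) and ID4 (-0.66 ± 0.16) were lost without 1 array (adjusted p up to 0.196 and 0.354). CXCL1, a neutrophil chemokine, had 8.72 and 8.15 at 46 °C against 10.16 and 9.77 at 37 °C (-1.53 ± 0.19). It was the 1 of 19 NF-kB targets and chemokines that passed. Across all genes tested 1.5% rose and 1.68% fell, so 1 call does not set a list of this size apart. HOXB8, a homeobox gene, had 10.22 and 10.17 at 46 °C against 11.64 and 11.62 at 37 °C (-1.44 ± 0.14), the 1 of 10 HOXB cluster genes that passed (median -0.33); without the first 46 °C array 3 passed. MAT2A, which makes S-adenosylmethionine, had 11.75 and 11.78 at 46 °C against 12.79 and 12.91 at 37 °C (-1.08 ± 0.13).

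The remaining falls among the 20 largest lay between -1.29 and -1.08. BANP, a nuclear factor, fell by 1.29 ± 0.13, with -0.85 and -0.10 at its other probes, and D2HGDH, a hydroxyglutarate dehydrogenase, by 1.27 ± 0.13, with -0.03 at its other probe. ZNF121 and ZBTB45, zinc finger genes, fell by 1.25 ± 0.14 and 1.13 ± 0.15, and BRINP3 by 1.16 ± 0.14. TIGD5 fell by 1.12 ± 0.15, HPS6, of a lysosome-related organelle complex, by 1.11 ± 0.14, SUOX, sulfite oxidase, by 1.10 ± 0.13 and EFNA4, an ephrin, by 1.08 ± 0.13. PCDHB2, a protocadherin, fell by 1.10 ± 0.14 with -0.28 at its other probe. BRI3BP fell by 1.09 ± 0.13 at the probe with the highest level, and its 3 other probes gave -0.08, -0.39 and -0.07. Among the rises a like split was seen in RIMBP3, which rose by 3.95 ± 0.14 at 1 probe and gave 0.35 at the other.

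Most lists of genes of basic cell functions had medians near that of all genes, and few members passed. Of all genes tested 1.5% rose and 1.68% fell, so few calls do not set these lists apart. Of 67 cytosolic ribosomal protein genes none rose and 1 fell, and of 40 S phase and mitosis genes none rose and 1 fell. None of 29 BCL2 family and caspase genes, 56 nuclear respiratory chain genes, 19 cholesterol synthesis genes and 16 NRF2 targets passed the limma test, with 6, 3, 4 and 3 of them at an unadjusted p under 0.05. Of 34 aminoacyl-tRNA synthetase genes 1 fell, and of 21 interferon-stimulated genes 1 fell, IFIT1 (-0.96 ± 0.13). With 1 array left out the synthetase falls ran from 0 to 3 and the interferon gene falls from 1 to 3. Of 6 metallothioneins 1 rose, MT2A (0.76 ± 0.12). Of 399 ZNF zinc finger genes 9 rose and 11 fell (median -0.06), and with 1 array left out 2 to 11 rose and 3 to 14 fell. The reference genes GAPDH (13.75 and 13.82 at 46 °C, 13.82 on both 37 °C arrays) and ACTB (13.90 and 13.99 at 46 °C, 14.07 and 13.91 at 37 °C) did not pass. Both lie close to 14.29, the top of the scale, where a change can be compressed. Several of these single calls were lost when 1 array was left out, with adjusted p up to 0.233 for RPL29, 0.379 for PSMB4, 0.311 for SNAPC4, 0.0939 for CENPA, 0.0575 for MARS2, 0.0667 for MT2A, 0.217 for H4C3, 0.0644 for H2BC5 and 0.318 for H4C2.

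Markers of other cell types were detected in part. Above background on all 4 arrays were 3 of 10 fibroblast markers (POSTN, THY1 and COL3A1), 1 of 11 leukocyte markers (CD68), 1 of 9 erythroid markers and 2 of 8 keratinocyte and mesothelial markers. CD14, a lipopolysaccharide co-receptor of monocytes, had 8.92 and 8.82 at 46 °C and was not above background at 37 °C (6.27 and 6.31), at least 5.28-fold higher, with 0.85 at its other probe. It was the 1 of 6 tested leukocyte markers that passed, where 1.5% of all genes tested rose. CD68, a lysosomal protein abundant in macrophages, had 10.54 and 10.42 at 46 °C against 10.009 and 9.996 at 37 °C (0.48 ± 0.13, limma adjusted p = 0.0698). The defining markers PTPRC and CD3E were below background on every array. The summed linear level of the 11 leukocyte markers measured was 2510 to 2638 at 46 °C and 1790 to 1797 at 37 °C. Most of that rise lay in CD14 and CD68. Of the 11 markers, 6 were not above background on any of the 4 arrays, and the median change of the 6 tested was -0.03. HBA2, an alpha globin gene, had 7.57 and 7.60 at 46 °C against 6.69 and 6.78 at 37 °C (0.85 ± 0.12, with 0.25 at its other probe), the 1 of 5 tested erythroid markers that passed; HBB was below background. The 9 erythroid markers measured summed to 814 to 834 at 46 °C and 667 to 712 at 37 °C, with most of the rise in HBA2. None of 10 fibroblast, 2 endothelial, 3 keratinocyte and mesothelial and 9 epithelial markers tested passed the limma test, and 1 of them, of the keratinocyte and mesothelial list, had an unadjusted p under 0.05. This was KRT10, a keratin of the upper epidermis, at 10.04 and 9.92 at 46 °C against 9.38 and 9.49 at 37 °C (0.55 ± 0.16, limma adjusted p = 0.0984). Whether other cells had a part in these rises was not tested.

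A gene family usually restricted to the testis rose. All 4 VCX genes of the X chromosome tested were higher at 46 °C, and VCX3A had 7.40 and 7.18 at 46 °C against 6.13 and 6.02 at 37 °C, at least 1.77-fold higher (1.21 ± 0.16). They are close copies and may share probe signal, and the family was picked after its values were seen. In all, 17 of the 92 genes that rose at least 2-fold were not above background at 37 °C. The same held for 3409 of all 14189 genes tested, which is a larger share.

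Genes with large changes were short. Among coding genes that rose at least 2-fold the median genomic span was 6491 bases (61 genes), and among those that fell at least 2-fold it was 6793 bases (27 genes), against 28342 bases for all 13004 coding genes. A span under 5000 bases was found in 42.6% of the coding genes that rose at least 2-fold, 33.3% of those that fell at least 2-fold and 11.2% of all. For all coding genes called, the median was 11754 bases among rises and 13849 among falls. Rises and falls thus shared short spans, FOS with 3403 bases and ID1 with 1222 being examples; these are descriptions of the sets, with no test.

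**Figure D4:**
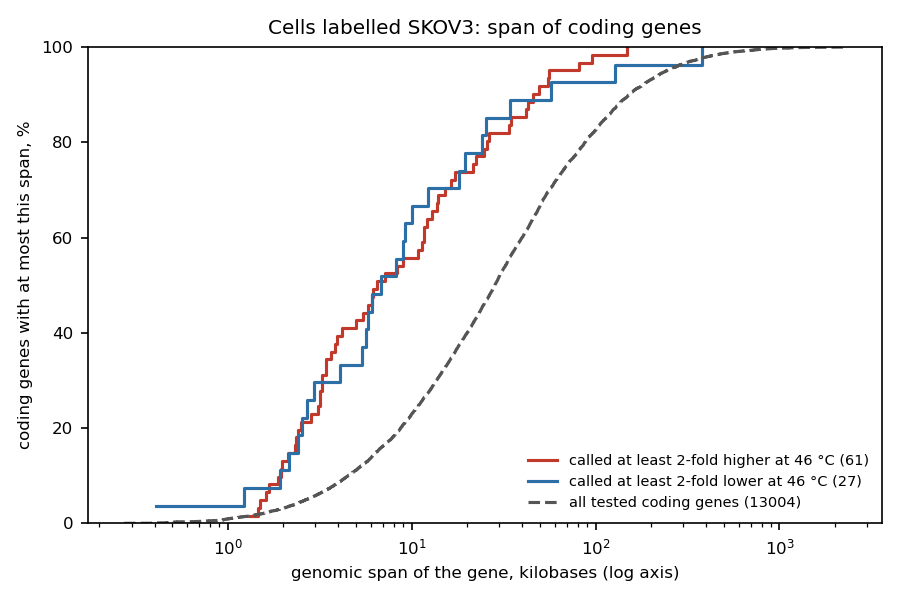
Cumulative share of coding genes (vertical axis, %) with at most the genomic span on the horizontal axis (kilobases, log axis) for genes at least 2-fold higher at 46 °C (red, 61), at least 2-fold lower (blue, 27) and all tested coding genes (dashed, 13004) in cells labelled SKOV3. The red and blue curves run together, with medians of 6491 and 6793 bases, to the left of the dashed curve with its median of 28342 bases.

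The calls were then set against those of cells labelled A2780, where 641 of the 14189 genes were called (316 higher, 325 lower). Of the 451 genes called in cells labelled SKOV3, 143 of 213 rises and 106 of 238 falls were also called in the same direction in cells labelled A2780. These were 55.2% of the SKOV3 calls and 38.8% of the A2780 calls, and none was called in the opposite direction. The other 202 were called in cells labelled SKOV3 and not in cells labelled A2780, which does not show that they differed. The called falls were smaller than the rises (median -0.67 against 0.92). Among changes of at least 2-fold, 85 of 92 rises and 26 of 30 falls were called alike in cells labelled A2780. The sign was the same there for 206 of 213 rises and 217 of 238 falls, and for 8410 of all 14189 genes. The difference of the responses passed for 14 genes (0.0987% of those tested, 4 higher and 10 lower in cells labelled SKOV3), with 1212 at an unadjusted p under 0.05. The balance rests on the scaling: it was 12 higher and 2 lower after median scaling, and 7 higher and 1 lower without normalization between arrays.

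Among the genes with the smaller response in cells labelled SKOV3, EGR1 rose in both lines, by 2.98 ± 0.13 in cells labelled SKOV3 and by 4.54 in cells labelled A2780 (difference -1.56 ± 0.18, limma adjusted p = 0.00260). STC2, a secreted glycoprotein of the integrated stress response, stood at 8.62 and 8.61 at 46 °C and 8.72 and 8.61 at 37 °C in cells labelled SKOV3 (-0.05 ± 0.14), and changed by 2.04 in cells labelled A2780 (difference -2.10 ± 0.20). CITED2, a co-activator competitor of HIF-1, had 12.88 and 12.55 at 46 °C against 13.09 and 13.17 at 37 °C (-0.42 ± 0.14, not passed), and changed by 1.16 in cells labelled A2780. IER3, an early gene, changed by 0.21 ± 0.13 and by 1.90 in cells labelled A2780, and DHDH rose by 1.08 ± 0.13 and by 2.52. The difference also passed for TSC22D3, a glucocorticoid-induced gene, CHAC1, which degrades glutathione, and TUFT1. With median scaling and with no between-array normalization, the differences of EGR1, IER3, CITED2, TSC22D3, CHAC1 and TUFT1 did not pass (adjusted p from 0.0569 to 0.187), and that of DHDH did not pass with no normalization (adjusted p = 0.0712).

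In the other direction, CDKN1A rose by 1.37 ± 0.14 in cells labelled SKOV3 and changed by 0.08 in cells labelled A2780 (difference 1.29), and RGS16, a regulator of G protein signalling, had 7.85 and 7.82 at 46 °C against 6.67 and 6.77 at 37 °C (1.12 ± 0.16) and changed by -0.36 in cells labelled A2780 (difference 1.48). The difference for CDKN1A did not pass with the mean of its probes (limma adjusted p = 0.658) or with the replicate number as a block (0.0536). Neither the CDKN1A nor the RGS16 difference passed on the authors' deposited log2 values (limma adjusted p = 0.0931 and 0.104). The same held without background correction (0.105 and 0.107). DKK1, a Wnt antagonist, and SNORA12 fell by 1.48 and 1.82 in cells labelled A2780. In cells labelled SKOV3 both lay near background at 46 °C and at 37 °C, where a fall could not be measured, so their differences of 1.56 and 1.55 do not show unlike responses. Among the leading rises, the differences of HSPA6 (-0.12 ± 0.19), FOS (-0.06) and RN7SK (-0.29) were small and did not pass. Those of RGS2 (1.49), RMRP (1.23), RPPH1 (1.11), JUN (-1.01) and HSPA1A (-0.88) were larger and lay just above the threshold (limma adjusted p from 0.0575 to 0.0792).

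**Figure D5:**
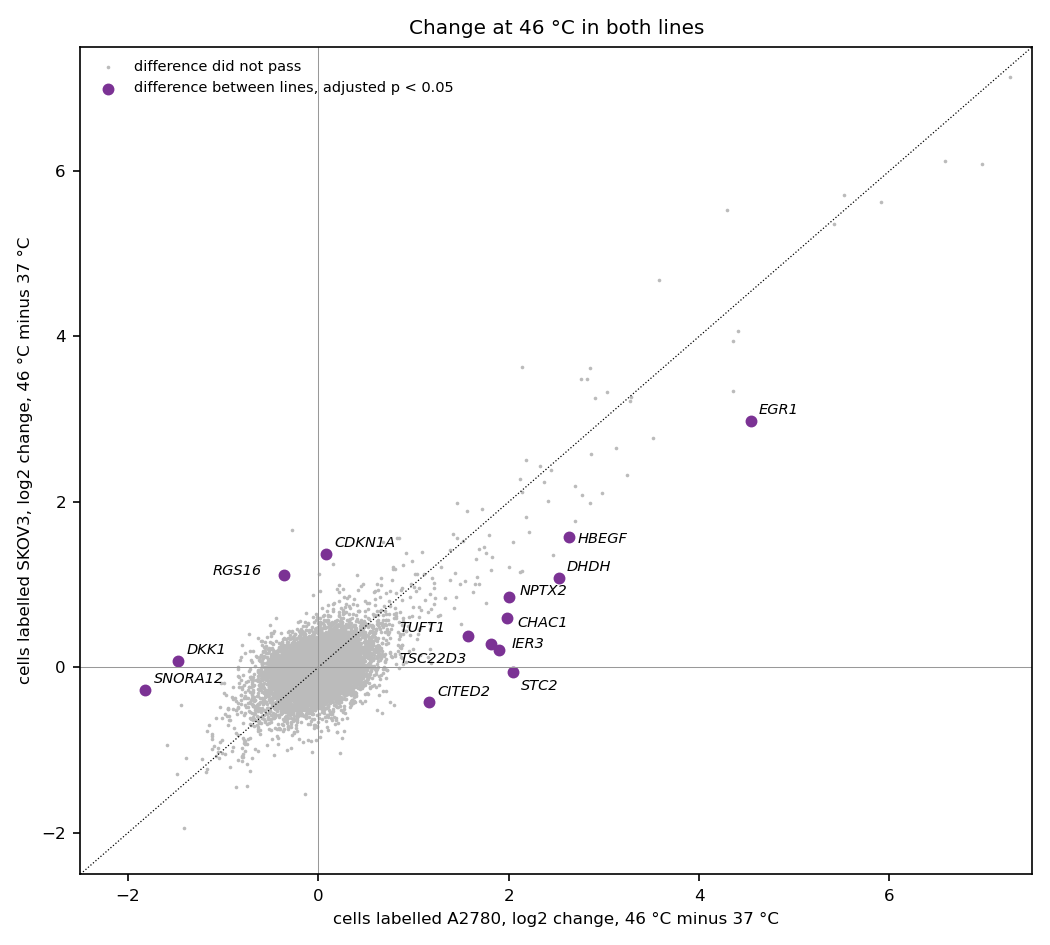
Log2 change (46 °C minus 37 °C) of each of the 14189 genes in cells labelled SKOV3 (vertical axis) and in cells labelled A2780 (horizontal axis), with the 14 genes whose responses differed at a limma adjusted p under 0.05 in purple and the line of equal change dotted. STC2 lies at -0.05 in cells labelled SKOV3 and 2.04 in cells labelled A2780, and CDKN1A at 1.37 in cells labelled SKOV3 and 0.08 in cells labelled A2780.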

How the data were processed

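Levels were measured in 8 samples, 2 for each of 4 groups. The intensity table of 47231 probes was exported by the authors with BeadStudio, per the labels; it is linear, unnormalized and not background-subtracted. The authors' deposited log2 values of the same arrays were an alternative. Signals were corrected with normexp (offset 50), quantile-normalized and log2-transformed with limma 3.58.1 in R 4.3.3. Background on each array was the 99th percentile of a normal curve fitted below the mode of its log2 signals.

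The filter kept the 28338 probes whose mean log2 value exceeded 6.16, the 40th percentile. Of the platform's probes 30113 had 1 gene symbol, 8 several and 17110 were unlisted, and 30074 of 30121 gene IDs matched RefSeq. Of 19546 named kept probes, the brightest stood for its gene (14189 genes, 4032 with several probes). Of 131 called genes with several probes, all probes had the same sign for 98.

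The linear model had 4 groups and all 8 arrays, with 4 residual degrees of freedom and 9.39 added by the empirical Bayes prior. Tests were two-sided limma contrasts with Benjamini-Hochberg adjustment and a threshold of 0.05. The scripts were tested on simulated data. Folds against a group below background are bounds against the lowest signal above it.

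The members, the gene lists and the rule on which genes to name were chosen with earlier results of these data known. That rule took the 20 largest rises and falls, up to 5 called members of each of 44 lists, up to 8 differences between lines in each direction, and 23 fixed genes. Called genes with clone names, 3 in all, were passed over. Replicate numbers were not treated as pairs: deviations of equally numbered samples correlated at -0.25 in cells labelled SKOV3 and 0.07 in cells labelled A2780. Alternatives were other backgrounds, scalings, filters, priors, weights, probes, sample sets and blocks. Promoters are RefSeq's (GRCh38.p14); 10774 of 13004 coding genes have one in the table.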

Additional observations from a re-analysis of the deposited data

Results flagged for a closer look

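The difference of the responses to 46 °C between the cultures, the interaction contrast of the limma fit, passed for 12 of the named genes. The difference, SKOV3-labelled minus A2780-labelled change on the log2 scale, was -2.10 for STC2, -1.68 for IER3, -1.58 for CITED2, -1.56 for EGR1, -1.54 for TSC22D3, -1.44 for DHDH, -1.39 for CHAC1 and -1.20 for TUFT1. It was 1.48 for RGS16 and 1.29 for CDKN1A. For DKK1 (1.56) and SNORA12 (1.55), which lay near background in cells labelled SKOV3 at both temperatures and left the test under a filter on background there, a fall could not be measured in cells labelled SKOV3, so these values do not show unlike responses. With single arrays left out, the highest adjusted p was 0.0238 for STC2 and 0.0403 for IER3, and above the threshold for EGR1 (0.0533), CITED2, TSC22D3, DHDH, CHAC1, TUFT1, RGS16 and CDKN1A (up to 0.257). The IER3 difference did not pass with median scaling (limma adjusted p = 0.066) or with no between-array normalization (0.0926). Those of RGS16 and CDKN1A did not pass on the authors' deposited log2 values (0.104 and 0.0931). HBEGF (-1.06) and NPTX2 (-1.15), named after their values were seen, also passed, and their calls too were lost with 1 array left out (adjusted p up to 0.319 and 0.249).

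Probes without a single gene name stand outside the comparisons of genes. Of 8792 such probes kept, 148 passed when tested together with the named ones, 84 higher and 64 lower at 46 °C. At least 2-fold changes were 29 rises and 6 falls, and the changes ran from -1.24 to 3.80 on the log2 scale.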

How the results depend on the processing

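With 2 arrays per group, counts of calls moved with single arrays. The 451 calls in cells labelled SKOV3 were 266 with median scaling, 192 with no between-array normalization and 40 with a 2-fold minimum in the test, and 175 to 603 with 1 array left out. The 238 falls were 115, 66 and 1 under those settings, 149 with the replicate number as a block, and 56 to 322 with 1 array left out. The 213 rises were 126 with no between-array normalization, 39 with the 2-fold minimum, 326 with unnamed probes included, and 119 to 334 with 1 array left out. The 14 differences between lines were 8 with no between-array normalization, 27 with no filter, 27 with array weights, 0 with the 2-fold minimum, 26 with a replicate block whose SKOV3 46 °C numbers were crossed, and 3 to 133 with 1 array left out.

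The numbers were crossed, and unnamed probes added, after seeing the data. Without between-array normalization the median difference between lines was 0.38 over all genes, and with median scaling 0.27. These gave 7 higher and 1 lower, and 12 higher and 2 lower, against 4 and 10. With the replicate block 323 genes were called, 319 of them among the 451; the numbers are not known to pair samples. Of 87 called named genes 28 kept their call under all 23 alternatives, and another 38 lost it only under the 2-fold minimum. Over 2410 gene values under alternatives 2211 kept direction and side, 170 lost the call, 14 gained it and 15 changed sign, all in genes that were not called. With median scaling and with no normalization, KRT18 was -0.0215 and -0.0126, GAPDH 0.0671 and 0.0759, and ACTB 0.0265 and 0.0353. HSP90AA1 was 0.00417 with no normalization and 0.0869 with the mean of probes, where ACTB was 0.00439. With 1 array left out, KRT18 ran from -0.112 to 0.138, GAPDH from -0.0657 to 0.00552, ACTB from -0.116 to 0.0299, STC2 from -0.111 to 0.00328 and KRT8 from -0.0271 to 0.288. The causes were not tested.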

Other observations

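Some further rises are named here after their values were seen, and of these ALB and ACTA1 are genes of other tissues. ALB, serum albumin, had 8.18 and 8.58 at 46 °C against 6.97 and 6.77 at 37 °C (1.51 ± 0.15, limma adjusted p = 3.74e-05). ACTA1, skeletal muscle actin, had 7.73 and 7.38 at 46 °C and was not above background at 37 °C (6.20 and 6.06), at least 2.12-fold higher. SGK1, a kinase induced by serum, glucocorticoids and cell shrinkage, had 8.29 and 8.42 at 46 °C and was not above background at 37 °C (a mean of 6.03), at least 3.69-fold higher. Of 4 TENT5 genes, which encode non-canonical poly(A) polymerases, 3 rose, TENT5C by 1.02 ± 0.15, TENT5A by 0.99 ± 0.13 and TENT5B by 0.94 ± 0.15, a call lost without the first 37 °C array (adjusted p = 0.0644).

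The microRNA gene probe of MIR1282 had 9.82 on the first 46 °C array and 6.37 on the second, against 6.19 and 6.67 at 37 °C, and did not pass (1.66 ± 0.69).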
